A study of Mus musculus with 4 samples.

Results

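Potassium channel genes were taken as the protein-coding genes of GENCODE M21 (mouse, mm10) with a symbol that starts with Kcn, on chromosomes 1 to 6 and 11 to 19. Of 75 such genes, 71 held at least 5 CpG sites that were listed in all 4 libraries and were kept. They were 71 of 12548 protein-coding genes of these chromosomes that met this condition, and held 7154 distinct sites in 19 subfamilies. Kcnv2, with 6 sites in the gene, and Kcnmb1, with 7, lay just inside the limit, and Kcnj13 and Kcnk7, with 4 each, just outside it. Kcne2 had 2 sites and Kcnrg had 0.

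Reduced representation bisulfite sequencing (RRBS), in which DNA is cut with MspI at CCGG and unmethylated cytosines are converted by bisulfite, had been run on 1 library each of ESCs and of neurons from the R1 and the Dnmt1 Tet/Tet line. R1 is a wild-type line of mouse embryonic stem cells (ESCs). The Dnmt1 Tet/Tet line made from it carries tet-off constructs at the gene of the maintenance methyltransferase Dnmt1. According to the study, Tet/Tet ESCs overexpress DNMT1, and neurons made from them have raised levels of it as well. Tet/Tet ESCs were grown with puromycin (1 µg/ml) and neomycin (150 µg/ml) and R1 ESCs were not, and neurons were made through 2 days as embryoid bodies and 10 to 15 days in a neural medium. Each library gives, for every listed CpG, the percent of reads that were methylated, without the number of reads, so the depth behind a site is unknown. With 1 library per condition no difference could be set against a spread between cultures, and no test was made. The SDs below are over the CpG sites of a region, not over cultures. ESC and neuron libraries belonged to different sequencing projects and, per the labels, to different DNA extractions, so cell type and these steps cannot be told apart.

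Potassium channels let potassium ions pass along their gradient, and in neurons they set the resting potential, end the action potential and limit repeated firing. The Kcn genes encode the pore subunits of voltage-gated, inwardly rectifying, tandem-pore and calcium- or sodium-activated channels, modifier subunits that conduct only when joined to other pore subunits, and auxiliary subunits that bind pores and change their gating or traffic. Many gene starts lie in CpG islands, CpG-rich stretches that are mostly unmethylated in mammals, whereas the sparser CpGs of gene bodies are mostly methylated.

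The promoter was read as the 1 kb to either side of the annotated gene start, and the gene body as the rest of the gene. The level of a region was the unweighted mean percent over its sites listed in all 4 libraries, for regions with at least 5 such sites. A promoter level could be had for 61 members, of which 45 overlapped a CpG island, and a gene body level for 69. Differences of at least 10 percentage points were counted.

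Stretches near the starts of 4 members are printed here because they show the kinds of promoter that the levels come from. They are from the GRCm38 (mm10) RefSeq assembly, 5′ to 3′ on the strand of the gene, and capitals mark the CpGs listed in all 4 libraries. Kcnh2 has an island promoter that was low in each library, Kcnk4 an island promoter that was higher in R1 neurons, Kcnn3 an upstream flank with a gradient, and Kcne1 a CpG-poor start.
Kcnh2, chr5:24351605-24351877, minus strand: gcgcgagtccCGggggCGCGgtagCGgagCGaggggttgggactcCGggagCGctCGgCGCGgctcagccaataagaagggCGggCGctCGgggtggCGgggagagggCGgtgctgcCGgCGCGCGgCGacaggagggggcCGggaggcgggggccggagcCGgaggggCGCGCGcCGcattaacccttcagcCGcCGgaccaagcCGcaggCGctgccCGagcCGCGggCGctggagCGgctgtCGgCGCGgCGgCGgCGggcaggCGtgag
Kcnk4, chr19:6933917-6934211, minus strand: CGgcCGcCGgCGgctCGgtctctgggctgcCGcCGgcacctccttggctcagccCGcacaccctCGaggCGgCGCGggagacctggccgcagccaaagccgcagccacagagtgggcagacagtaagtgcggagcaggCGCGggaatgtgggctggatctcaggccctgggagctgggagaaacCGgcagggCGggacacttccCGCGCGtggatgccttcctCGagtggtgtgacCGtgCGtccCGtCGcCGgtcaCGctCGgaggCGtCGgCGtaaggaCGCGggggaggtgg
Kcnn3, chr3:89519746-89520042, plus strand: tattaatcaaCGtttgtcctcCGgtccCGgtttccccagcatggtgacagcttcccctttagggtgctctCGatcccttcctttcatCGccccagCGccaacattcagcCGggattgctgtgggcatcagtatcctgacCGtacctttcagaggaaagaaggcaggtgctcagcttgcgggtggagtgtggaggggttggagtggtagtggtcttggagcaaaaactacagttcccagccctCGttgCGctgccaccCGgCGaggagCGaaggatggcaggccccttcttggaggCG
Kcne1, chr16:92358896-92359195, minus strand: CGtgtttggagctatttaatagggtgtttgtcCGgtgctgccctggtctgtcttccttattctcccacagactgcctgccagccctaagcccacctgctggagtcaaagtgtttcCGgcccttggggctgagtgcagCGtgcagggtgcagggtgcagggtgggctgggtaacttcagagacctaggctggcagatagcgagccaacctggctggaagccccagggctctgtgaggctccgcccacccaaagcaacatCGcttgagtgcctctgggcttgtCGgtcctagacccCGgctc

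The Kcnh2 stretch ends 1 bp before the gene start, and its listed CpGs averaged 1.91% in R1 and 5.10% in Tet/Tet ESCs, and 1.37% in R1 and 2.55% in Tet/Tet neurons. The Kcnk4 stretch lies downstream of the start, and its CpGs averaged 1.76% in R1 and 2.00% in Tet/Tet ESCs, and 30.2% in R1 and 3.34% in Tet/Tet neurons. The Kcne1 stretch, also downstream, averaged 12.5% in R1 and 17.5% in Tet/Tet ESCs, and 90.4% in R1 and 6.94% in Tet/Tet neurons. CpGs stand close together in the stretches of Kcnh2 and Kcnk4 and far apart in that of Kcne1, which was the highest of the 3 in R1 neurons. In the Kcnn3 stretch the level of single sites in R1 neurons went from 87.5% at the second listed site, far from the start, to 20.7% at the eighth and 0.0% at the last, nearest to the start. In the other 3 libraries no site of this stretch was above 25%.

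Promoters of potassium channel genes were low in ESCs and in Tet/Tet neurons and higher in R1 neurons. Their median was 3.69% in R1 and 3.50% in Tet/Tet ESCs, and 9.38% in R1 and 3.40% in Tet/Tet neurons, and 56 of 61 were highest in R1 neurons. The last count was not made over all promoters. Of all promoters 89.7% were higher in R1 neurons than in R1 ESCs by any amount, beside 96.7% of members. In Tet/Tet against R1 neurons 16.3% of all promoters were higher, beside 6.56% of members. From R1 ESCs to R1 neurons 23 of 61 were higher by at least 10 points, or 37.7%, beside 25.1% of all promoters, and 0 were lower, beside 0.107%. In Tet/Tet against R1 neurons 24 were lower, beside 25.6% of all promoters, and 0 were higher, beside 0.0388%. In all, 31 promoters were under 10% in each library. In R1 neurons alone 31 of 61 (50.8%) were, beside 68.9% of all promoters.

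**Figure D1:**
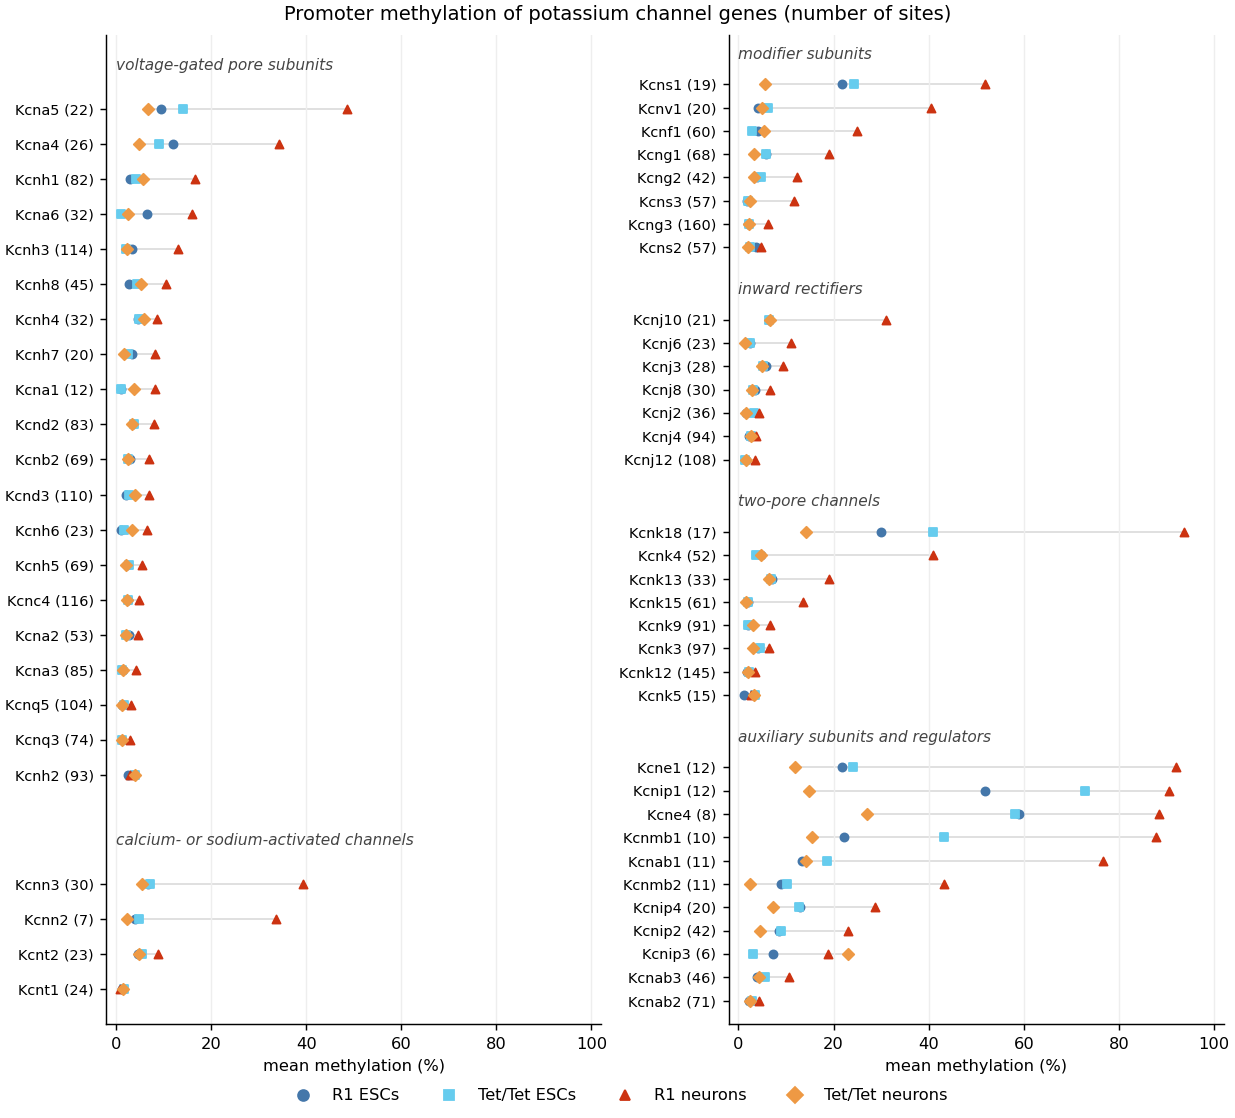
Promoter level in percent of the members with at least 5 sites that are reported by name, with 1 line per gene, 1 point per library, the number of sites in brackets, and genes grouped by channel role. The points of R1 neurons lie farthest to the right in most lines, and the highest come mainly from auxiliary subunits. Of their promoters 9 of 11 were at least 10 points above R1 ESCs, and 4 of the 11 had an island. Of all promoters 25.1% were that much higher, and of those without an island 78.9%.

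Of the voltage-gated pore subunits 3 of 23 promoters were higher by at least 10 points in R1 neurons than in R1 ESCs. Beside this stood 25.1% of all promoters and 14.5% of those with an island, which 20 of the 23 had. Of the 20 with an island 1 was counted, Kcnh1. This count is over the promoter window and not over the island. The start island of Kcnh1 was at 1.30% in R1 ESCs and 3.75% in R1 neurons (55 sites). That of Kcna6, whose promoter was not counted, was at 6.76% and 31.7% (49 sites). Kcnq3 and Kcnq5 contribute to the M-current, which restrains repeated firing. The Kcnq3 promoter was at 1.19% ± 2.41 in R1 and 1.29% ± 2.22 in Tet/Tet ESCs, and 2.94% ± 9.42 in R1 and 1.28% ± 3.11 in Tet/Tet neurons (SD over 74 sites). That of Kcnq5 was at 1.28% ± 2.01 in R1 and 1.72% ± 2.06 in Tet/Tet ESCs, and 3.25% ± 4.69 in R1 and 1.26% ± 1.81 in Tet/Tet neurons (SD over 104 sites). Kcnh2, which encodes the ERG channel, was at 2.55% ± 9.15 in R1 and 4.09% ± 9.18 in Tet/Tet ESCs, and 2.88% ± 8.30 in R1 and 4.03% ± 10.8 in Tet/Tet neurons (SD over 93 sites), so that no library stood out. Kcnd2, a pore subunit of A-type currents, reached 7.91% in R1 neurons.

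Kcna4, Kcna5 and Kcnh1 were the voltage-gated members counted as higher. The promoter of Kcna5, a delayed rectifier known from heart and vessels, was at 9.42% ± 6.84 in R1 and 14.1% ± 11.4 in Tet/Tet ESCs, and 48.7% ± 36.2 in R1 and 6.73% ± 5.75 in Tet/Tet neurons (SD over 22 sites). Kcna4, an A-type subunit, was at 12% in R1 and 8.99% in Tet/Tet ESCs, and 34.2% in R1 and 4.85% in Tet/Tet neurons (26 sites). Kcnh1, an EAG channel, was at 3.04% in R1 and 4.13% in Tet/Tet ESCs, and 16.7% in R1 and 5.78% in Tet/Tet neurons (82 sites), and was the single one of the 3 with an island. In all 3 the library of R1 neurons was the highest and that of Tet/Tet neurons was close to the ESCs or below them.

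Kcna1 calls for care, because its annotated gene start lies 1571 bp from the nearest start of a protein-coding transcript. Around the annotated gene start Kcna1 was at 1.03% in R1 and 1.13% in Tet/Tet ESCs, and 8.20% in R1 and 3.75% in Tet/Tet neurons (12 sites). At the protein-coding starts Kcna1 was at 2.08% in R1 and 2.13% in Tet/Tet ESCs, and 3.97% in R1 and 1.51% in Tet/Tet neurons (81 sites). It was low in each library by either reading.

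Modifier subunits all had island promoters where a level could be had. Of these, 4 of 8 were counted as higher in R1 neurons, beside 14.5% of all island promoters. Kcnv1 was at 4.14% ± 5.90 in R1 and 6.17% ± 9.14 in Tet/Tet ESCs, and 40.4% ± 26.5 in R1 and 4.97% ± 5.57 in Tet/Tet neurons (SD over 20 sites). Kcnf1 was at 4.10% ± 8.95 in R1 and 2.88% ± 3.93 in Tet/Tet ESCs, and 24.8% ± 20.9 in R1 and 5.28% ± 13.7 in Tet/Tet neurons (SD over 60 sites). Kcns1, which joins Kv2 channels, was at 21.7% ± 27.1 in R1 and 24.3% ± 19.7 in Tet/Tet ESCs, and 51.9% ± 38.8 in R1 and 5.53% ± 22.9 in Tet/Tet neurons (SD over 19 sites). Kcns1 already stood above the other modifier promoters in ESCs, and in Tet/Tet neurons it was the one lower by at least 10 points than in Tet/Tet ESCs. Kcns2 differed little, at 3.70% in R1 and 2.43% in Tet/Tet ESCs, and 4.65% in R1 and 2.01% in Tet/Tet neurons (57 sites).

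Of the inward rectifiers 1 of 7 promoters was counted as higher in R1 neurons, beside 25.1% of all promoters. This was Kcnj10, the Kir4.1 channel through which astrocytes take up potassium, at 6.45% ± 10.3 in R1 and 6.47% ± 11.2 in Tet/Tet ESCs, and 31.1% ± 31.6 in R1 and 6.55% ± 6.45 in Tet/Tet neurons (SD over 21 sites). Kcnj3 and Kcnj6 encode subunits of the G-protein-gated channels that carry inhibitory currents in neurons. Kcnj3 was at 5.81% in R1 and 5.11% in Tet/Tet ESCs, and 9.38% in R1 and 4.90% in Tet/Tet neurons (28 sites). Kcnj6 was at 2.33% in R1 and 2.53% in Tet/Tet ESCs, and 11% in R1 and 1.27% in Tet/Tet neurons (23 sites). Kcnj8, a pore subunit of ATP-sensitive channels, was at 3.38% in R1 and 3.10% in Tet/Tet ESCs, and 6.63% in R1 and 2.88% in Tet/Tet neurons (30 sites).

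Tandem-pore (two-pore) channels, which carry background potassium current, ranged widely, with 4 of 8 promoters counted as higher, beside 25.1% of all promoters. Kcnk18, known from sensory neurons, was at 29.9% ± 19.4 in R1 and 40.9% ± 20.7 in Tet/Tet ESCs, and 93.7% ± 4.15 in R1 and 14.2% ± 4.31 in Tet/Tet neurons (SD over 17 sites). Kcnk4, known as the mechanosensitive channel TRAAK, was at 4.81% ± 7.87 in R1 and 3.64% ± 6.65 in Tet/Tet ESCs, and 40.8% ± 23 in R1 and 4.72% ± 4.55 in Tet/Tet neurons (SD over 52 sites). Kcnk15 was at 2.09% in R1 and 2.06% in Tet/Tet ESCs, and 13.6% in R1 and 1.66% in Tet/Tet neurons (61 sites). Kcnk18 had no island and the others did. Kcnk13, which is named after its values were seen, was the remaining one, at 7.12% in R1 and 6.81% in Tet/Tet ESCs, and 19.1% in R1 and 6.51% in Tet/Tet neurons (33 sites). Kcnk3 and Kcnk9, the acid-sensitive TASK channels, were at 6.48% and 6.68% in R1 neurons and lower in the other 3 libraries.

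Among calcium- and sodium-activated channels, the small-conductance channels Kcnn2 and Kcnn3, which shape the afterhyperpolarization, were the 2 of 4 that were higher. The share of all promoters was 25.1%, and that of promoters without an island was 78.9%. Neither Kcnn2 nor Kcnn3 had an island at its promoter, and 1 of the 4 did. Kcnn3 was at 6.65% ± 13.2 in R1 and 7.14% ± 9.63 in Tet/Tet ESCs, and 39.3% ± 33.4 in R1 and 5.47% ± 8.17 in Tet/Tet neurons (SD over 30 sites). Kcnn2 was at 3.97% in R1 and 4.76% in Tet/Tet ESCs, and 33.7% in R1 and 2.24% in Tet/Tet neurons (7 sites), and over all its protein-coding starts at 3.10% in R1 and 3.01% in Tet/Tet ESCs, and 5.30% in R1 and 2.38% in Tet/Tet neurons (109 sites). Kcnt1, a sodium-activated channel, had the lowest promoter in R1 neurons, with 1.21% ± 2.10 in R1 and 1.71% ± 3.85 in Tet/Tet ESCs, and 0.831% ± 2.53 in R1 and 1.49% ± 4.11 in Tet/Tet neurons (SD over 24 sites). Over all its protein-coding starts, however, Kcnt1 was at 3.15% in R1 and 2.84% in Tet/Tet ESCs, and 17.6% in R1 and 2.92% in Tet/Tet neurons (59 sites), so that the low value belongs to the first start.

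Auxiliary subunits had the highest median promoter level of the 6 roles in R1 neurons, at 43.2%, and 7 of their 11 promoters had no island. Kcne1, the partner of Kcnq1 in the heart, was at 21.9% ± 18 in R1 and 24.1% ± 15.7 in Tet/Tet ESCs, and 91.9% ± 7.14 in R1 and 11.8% ± 8.71 in Tet/Tet neurons (SD over 12 sites). Kcne4, which inhibits several voltage-gated channels, was at 59.1% ± 17 in R1 and 58.1% ± 17.5 in Tet/Tet ESCs, and 88.5% ± 8.78 in R1 and 27.1% ± 17.8 in Tet/Tet neurons (SD over 8 sites). Kcnab1, a cytoplasmic beta subunit, was at 13.4% ± 10.5 in R1 and 18.6% ± 11 in Tet/Tet ESCs, and 76.7% ± 27.3 in R1 and 14.3% ± 9.04 in Tet/Tet neurons (SD over 11 sites). These were above 75% in R1 neurons and under 30% in Tet/Tet neurons, while in ESCs they ranged from 13.4% to 59.1%. Kcnab2 and Kcnab3, with islands, were at 4.24% and 10.5% in R1 neurons. Kcnmb2, a beta subunit of the large-conductance channel, was at 8.90% in R1 and 10.2% in Tet/Tet ESCs, and 43.2% in R1 and 2.44% in Tet/Tet neurons (11 sites).

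The Kcnip genes encode calcium sensors that bind A-type channels. Kcnip1 was at 51.7% ± 15.1 in R1 and 72.9% ± 10.5 in Tet/Tet ESCs, and 90.6% ± 5.76 in R1 and 14.8% ± 6.17 in Tet/Tet neurons (SD over 12 sites), but its annotated gene start lies 149567 bp from the nearest start of a protein-coding transcript. At the protein-coding starts Kcnip1 was at 3.24% in R1 and 1.88% in Tet/Tet ESCs, and 18% in R1 and 2.71% in Tet/Tet neurons (37 sites), so that the high level is that of a start with no protein-coding transcript. Kcnmb1, which lies inside the Kcnip1 gene and shares 13 sites with it, was at 22.2% ± 17.7 in R1 and 43.2% ± 29.3 in Tet/Tet ESCs, and 87.7% ± 11.7 in R1 and 15.4% ± 9.31 in Tet/Tet neurons (SD over 10 sites). Kcnip2 was at 8.53% in R1 and 8.99% in Tet/Tet ESCs, and 23% in R1 and 4.54% in Tet/Tet neurons (42 sites), and within 500 bp of the start the difference of R1 neurons from R1 ESCs was -0.69 points. Kcnip3, also known as DREAM, was at 7.27% ± 6.42 in R1 and 2.99% ± 3.17 in Tet/Tet ESCs, and 18.9% ± 14.2 in R1 and 23% ± 38.3 in Tet/Tet neurons (SD over 6 sites), which made it the single promoter higher in Tet/Tet neurons than in Tet/Tet ESCs by at least 10 points.

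The Kcnip3 value rested on 1 site, and the stretch that holds it is printed for that reason, with capitals as above.
Kcnip3, chr2:127522216-127522406, minus strand: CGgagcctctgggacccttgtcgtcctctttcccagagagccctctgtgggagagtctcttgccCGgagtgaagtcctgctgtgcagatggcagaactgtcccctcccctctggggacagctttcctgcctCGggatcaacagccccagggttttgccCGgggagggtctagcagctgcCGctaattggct

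The first listed CpG of the Kcnip3 stretch, 311 bp before the start, was at 20% in R1 and 0.0% in Tet/Tet ESCs, and 0.0% in R1 and 100% in Tet/Tet neurons. At the other 4 listed sites Tet/Tet neurons were at 0.0% to 18.2%. Without the site farthest from the mean the difference of Tet/Tet neurons from Tet/Tet ESCs was 3.97 points instead of 20.

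Between the ESC lines, 3 of 61 promoters were higher in Tet/Tet, beside 2.18% of all promoters, and 0 were lower, beside 0.989%. They were Kcnip1, Kcnmb1 and Kcnk18, by 21.1, 20.9 and 11 points. All 3 had 17 sites or fewer, and that of Kcnip1 is at the start with no protein-coding transcript. Over its protein-coding starts the difference of Kcnip1 was -1.37 points. Without its farthest site Kcnmb1 differed by 12.2 points. In Tet/Tet neurons against Tet/Tet ESCs, 1 promoter was higher, beside 0.553%, and 6 were lower, beside 6.73% of all promoters.

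Promoter levels in R1 neurons went with the presence of a CpG island. Of members with an island, 11 of 45 (24.4%) were higher in R1 neurons than in R1 ESCs, beside 14.5% of all island promoters. Of those without, 12 of 16 (75%) were higher, beside 78.9% of all such promoters. These counts are over the promoter window and not over the island. In R1 neurons the start islands of Kcnf1, Kcnv1, Kcnj10 and Kcnk4 were at 19.2% to 37.2%, beside 2.70% to 4.81% in R1 ESCs. Those of Kcng1, Kcnh1, Kcnip2, Kcnip4 and Kcnk15 were at 3.75% to 11.3%, beside 1.30% to 3.02% in R1 ESCs. That of Kcns1 was at 22.1%, beside 17.5% in R1 ESCs, and those of Kcnk13 at 24.5% and 7.10%, beside 12.4% and 1.60%. Sites of promoters inside islands averaged 6.55% in R1 neurons (SD 11.7 over 2570 sites), and those outside islands 37.3% (SD 36.5 over 568 sites). Part of the order of the roles moved with the islands, which lay in 20 of 23 voltage-gated promoters but in 4 of 11 auxiliary ones, and their part in it was not tested.

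**Figure D2:**
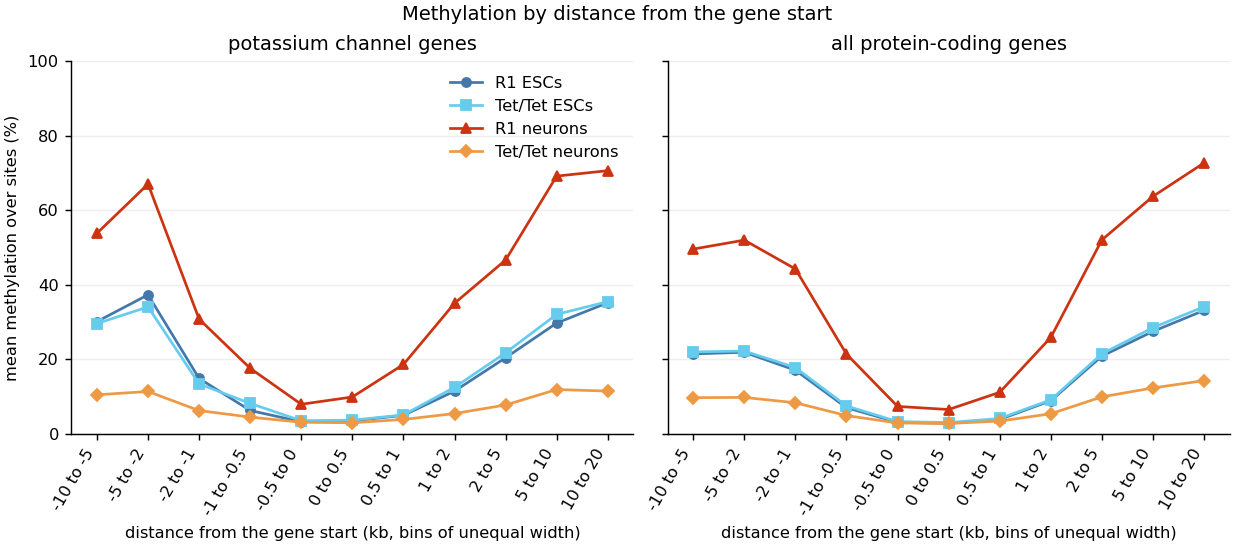
Mean percent methylation over sites in bins of unequal width by distance from the gene start (kb, upstream negative), for potassium channel genes and all protein-coding genes in the 4 libraries. The trough at the start is shared, and from 500 to 1000 bp downstream R1 neurons were at 18.6% in potassium channel genes and 11.2% in all genes.

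Levels were lowest around the gene start and higher on either side of it. In R1 neurons, potassium channel genes were at 7.98% from 500 bp upstream to the start, 9.93% in the first 500 bp downstream, 18.6% from 500 to 1000 bp and 35.1% from 1000 to 2000 bp. All genes were at 7.40%, 6.57%, 11.2% and 25.9% in the same bins. In Tet/Tet neurons potassium channel genes were at 3.91% from 500 to 1000 bp and 5.49% from 1000 to 2000 bp.

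Gene bodies were at intermediate levels in ESCs, high in R1 neurons and low in Tet/Tet neurons. The median over 69 members was 38% in R1 and 43.4% in Tet/Tet ESCs, and 86.6% in R1 and 13.9% in Tet/Tet neurons. Of the 69, 68 were highest in R1 neurons and lowest in Tet/Tet neurons, and Kcnab3 was the exception, with 7.47% in R1 and 9.12% in Tet/Tet ESCs, and 70.4% in R1 and 11.5% in Tet/Tet neurons (22 sites). This order was not counted over all genes. Of all bodies 99.5% were higher in R1 neurons than in R1 ESCs by any amount, and 6.41% were higher in Tet/Tet neurons than in Tet/Tet ESCs. In R1 neurons 68 of the 69 members were higher than in R1 ESCs by at least 10 points, beside 94.4% of all genes, and 0 were lower, beside 0.0188%. In Tet/Tet against R1 neurons 68 were lower, beside 96.2%, and 0 were higher, beside 0.00939%. These shares are close to those of all genes.

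**Figure D3:**
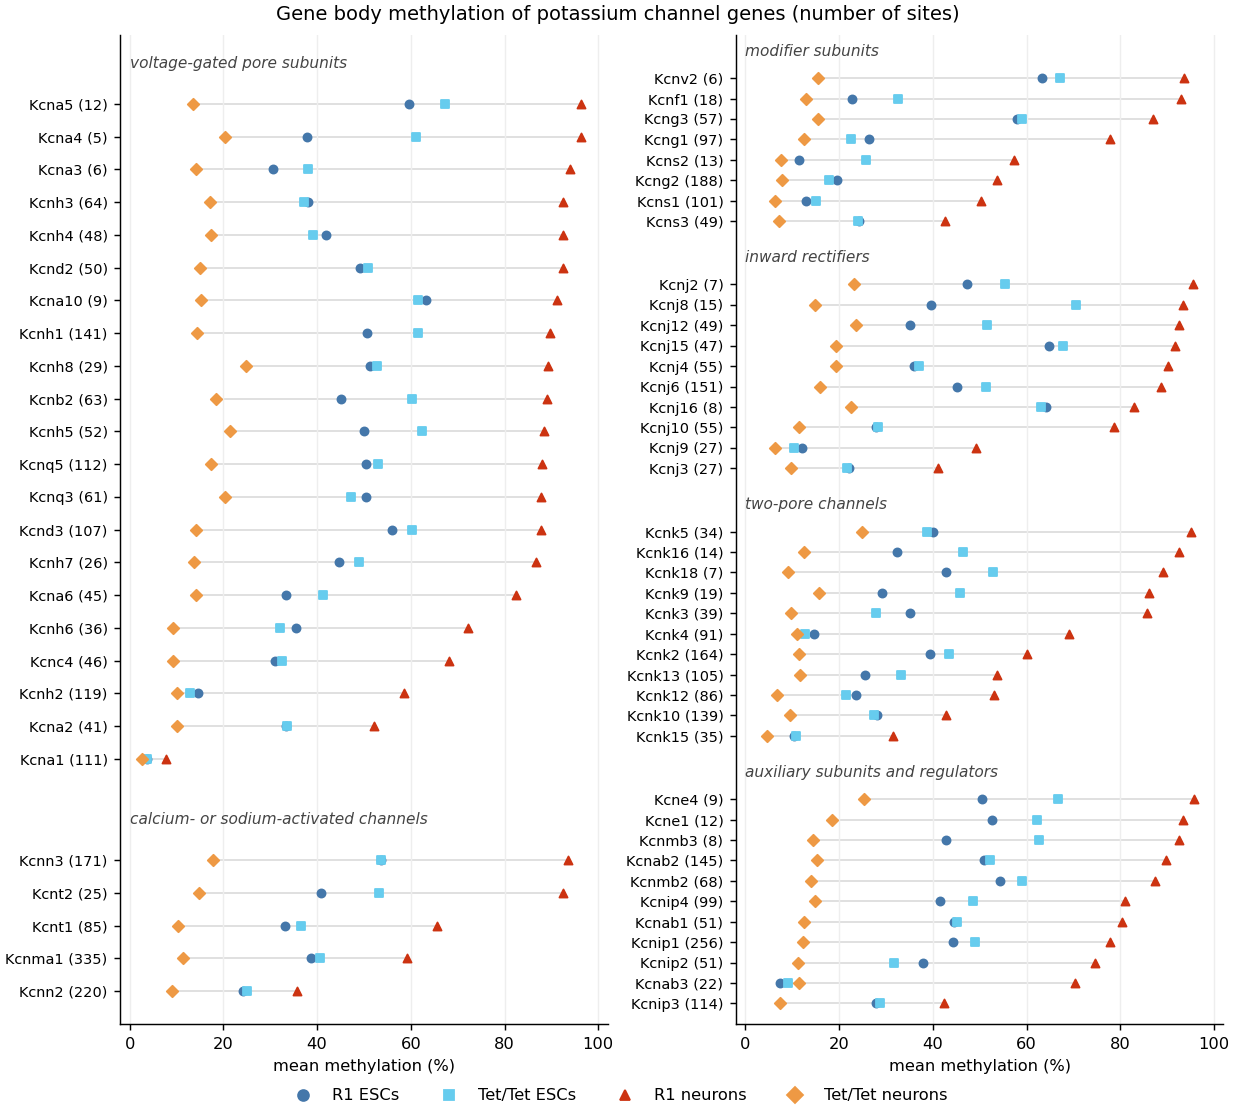
Gene body level in percent of the members with at least 5 sites that are reported by name, with 1 line per gene, 1 point per library, the number of sites in brackets, and genes grouped by channel role. The medians over all members were 38%, 43.4%, 86.6% and 13.9% in ESCs of R1 and Tet/Tet and in neurons of R1 and Tet/Tet.

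The largest difference between neuron and ESC bodies of R1 was that of Kcnf1, a modifier subunit, at 22.8% ± 36.2 in R1 and 32.5% ± 27 in Tet/Tet ESCs, and 92.9% ± 12.8 in R1 and 13% ± 9.08 in Tet/Tet neurons (SD over 18 sites). Kcnq5 was at 50.4% ± 30.6 in R1 and 53% ± 29.4 in Tet/Tet ESCs, and 88% ± 22 in R1 and 17.2% ± 19.2 in Tet/Tet neurons (SD over 112 sites). Kcnd3, an A-type subunit mutated in a spinocerebellar ataxia, was at 56% ± 27.9 in R1 and 60.2% ± 26.1 in Tet/Tet ESCs, and 87.7% ± 20.5 in R1 and 14.3% ± 13.2 in Tet/Tet neurons (SD over 107 sites). The order of the 4 libraries was the same in all 3. In Tet/Tet neurons the highest bodies were those of Kcne4, at 25.3%, and Kcnk5 and Kcnh8, at 24.9% each, and all 69 were thus under 26% there. From Tet/Tet ESCs to Tet/Tet neurons 61 bodies were lower by at least 10 points, beside 76.8% of all genes, and 0 were higher, beside 0.441%.

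In R1 neurons 9 bodies were under 50%, and 60 of 69 (87.0%) were at 50% or more, beside 84.3% of all genes. The lowest was Kcna1, a delayed rectifier of axons, with 3.62% ± 6.87 in R1 and 3.71% ± 8.48 in Tet/Tet ESCs, and 7.81% ± 10.9 in R1 and 2.52% ± 7.27 in Tet/Tet neurons (SD over 111 sites). Kcnk15 was at 10.4% in R1 and 10.7% in Tet/Tet ESCs, and 31.4% in R1 and 4.71% in Tet/Tet neurons (35 sites). Kcnn2 was at 24.2% in R1 and 25.1% in Tet/Tet ESCs, and 35.7% in R1 and 9.04% in Tet/Tet neurons (220 sites). Kcnj9, a G-protein-gated subunit, was at 12.1% in R1 and 10.3% in Tet/Tet ESCs, and 49.1% in R1 and 6.32% in Tet/Tet neurons (27 sites). Kcnj3, Kcnip3, Kcns3 and Kcnk10 were at 41.2% to 42.9% in R1 neurons. Some of these bodies held an island at another protein-coding start of the same gene. Such an island held 63 of the 111 body sites of Kcna1, 130 of 220 in Kcnn2 and 65 of 139 in Kcnk10. In Kcnip3 it held 45 of 114, and in Kcnj3 8 of 27. Around the protein-coding starts of Kcns3 lay 84 sites, beside 57 in its promoter. These low levels are thus partly those of starts. Outside CpG islands 7 of the 9 were at 50% or more, and Kcna1 (16.1%) and Kcns3 (42.7%) were not.

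The share of a body's sites that lay in islands went with its level in R1 neurons, with Pearson's r of -0.81 and Spearman's rho of -0.76 across 69 genes. The genes come from the same library and are not independent replicates, and the value is a description. Outside islands the median of the members in R1 neurons was 89.4%, from 16.1% to 97.3%, and 55 of 69 were at 80% or more, against 41 for the whole body. For the whole body this was 59.4%, beside 68.3% of all genes, and outside islands it was not counted over all genes. Body sites inside islands averaged 27.7% in R1 neurons over 1464 sites, beside 15.8% in all genes, and those outside 86% over 3616 sites, beside 85.1%.

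Of 84 islands in the members, 46 lay at the gene start and were low, with a median of 2.22% in R1 and 2.53% in Tet/Tet ESCs, and 5.99% in R1 and 2.62% in Tet/Tet neurons. The 11 at another protein-coding start had medians of 2.37%, 2.17%, 6.78% and 2.51% in the same order. In R1 neurons they ranged from 2.11% to 96.9%, and 2 were at 50% or more. The 3 at the start of another gene had medians of 4.83%, 2.74%, 68.4% and 5.04%, and ranged from 37.2% to 70.6% in R1 neurons. The 24 with no annotated start had medians of 14.7%, 13.7%, 83.7% and 13.9%. Of these 24, 16 were at 50% or more in R1 neurons, and of the 15 under 20% in R1 ESCs 7 were. Islands of all protein-coding genes were not grouped in this way. Whether these shares are particular to potassium channel genes is thus not known.

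**Figure D4:**
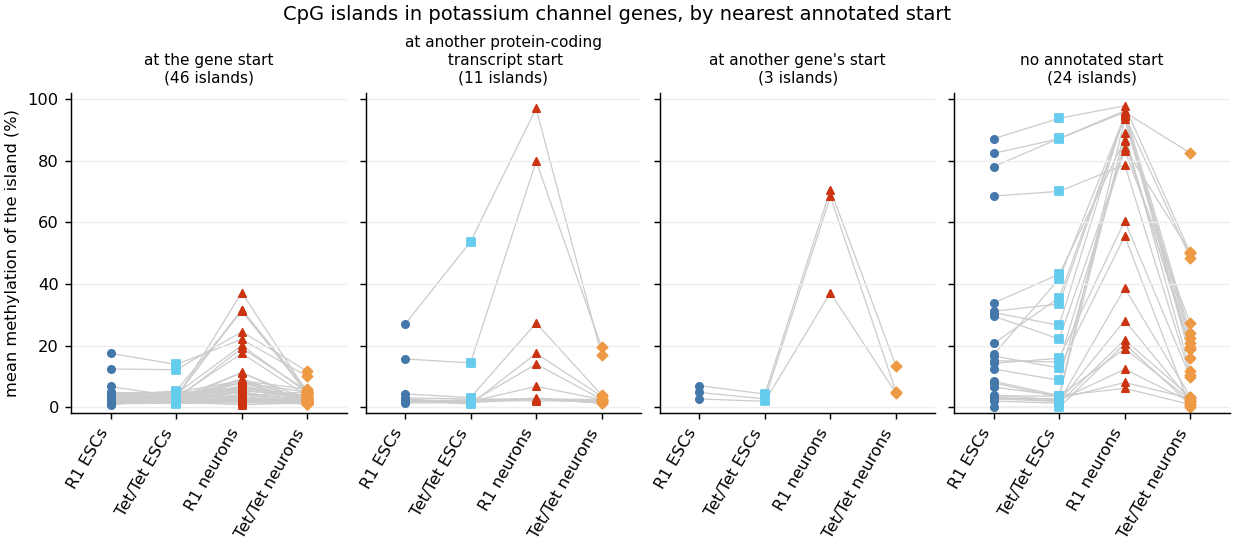
Mean percent methylation of the CpG islands in potassium channel genes, by library and by what is annotated at the island, with 1 point per island and library and lines that join the same island. Of the 46 islands at the gene start 39 were under 20% in R1 neurons, while those with no annotated start had a median of 83.7% in R1 neurons. Islands of all genes were not grouped in this way.

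Among the 24, 9 islands were mostly soft-masked, that is, in sequence marked as repeats in the assembly. An island in Kcnma1, the large-conductance calcium-activated channel, was at 15.2% in R1 and 14.7% in Tet/Tet ESCs, and 84.2% in R1 and 50.4% in Tet/Tet neurons (7 sites). An island in Kcnip4 was at 17.1% in R1 and 41.7% in Tet/Tet ESCs, and 94.5% in R1 and 48.6% in Tet/Tet neurons (5 sites). An island in Kcnq5 was at 87.1% in R1 and 93.8% in Tet/Tet ESCs, and 97.8% in R1 and 50% in Tet/Tet neurons (6 sites). These 3, with 1 island of Kcnn2, were the 4 of 9 above 48% in Tet/Tet neurons, and the other 5 were at 0.0% to 27.2% there. They held 5 to 7 sites each. The part of the repeat sequence in these values was not tested.

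The listed stretch of the Kcnma1 island is printed because neighbouring CpGs in it differed, with capitals as above.
Kcnma1, chr14:23410325-23410395, minus strand: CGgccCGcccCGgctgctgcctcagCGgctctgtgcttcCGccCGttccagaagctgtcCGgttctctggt

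In the Kcnma1 stretch the third listed CpG was at 98.2% in R1 and 97.1% in Tet/Tet ESCs, and 99.6% in R1 and 97.8% in Tet/Tet neurons. The 4 CpGs that follow it were at 0.922% to 2.76% in R1 ESCs, at 78.3% to 94.6% in R1 neurons and at 10.3% to 17.7% in Tet/Tet neurons. The first 2 CpGs were at 0.0% in both ESC libraries, at 50% and 100% in R1 neurons and at 100% in Tet/Tet neurons. The 50.4% of the island in Tet/Tet neurons thus came mostly from 3 of its 7 sites.

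Between the ESC lines, 13 of 69 bodies were higher in Tet/Tet by at least 10 points, or 18.8%, beside 10.7% of all genes, and 0 were lower, beside 4.11%. The median difference was 1.76 points, beside 1.32 in all genes. Of the 13, 8 had fewer than 20 sites, and among the 53 members with at least 20 sites 5 were higher. The share of all genes was not counted at 20 sites, and the 10.7% is for at least 5 sites. Kcnj8 was at 39.6% ± 26.8 in R1 and 70.6% ± 32 in Tet/Tet ESCs (SD over 15 sites), the largest difference. Kcna4 was at 37.8% ± 30.7 in R1 and 61% ± 10.1 in Tet/Tet ESCs (SD over 5 sites). Kcnmb3 was at 42.7% ± 15.7 in R1 and 62.6% ± 23.7 in Tet/Tet ESCs (SD over 8 sites).

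With more sites, Kcnh1 was at 50.7% ± 29.5 in R1 and 61.5% ± 27.4 in Tet/Tet ESCs (SD over 141 sites). Kcnj12, Kcnb2, Kcnh5 and Kcnt2, which are named after their values were seen, differed by 16.5, 15.3, 12.4 and 12.5 points. Kcnk9, with fewer sites, was at 29.2% ± 21.8 in R1 and 45.7% ± 27.7 in Tet/Tet ESCs (SD over 19 sites). The largest difference the other way was that of Kcnk3, with 35% ± 25.8 in R1 and 27.8% ± 21.1 in Tet/Tet ESCs (SD over 39 sites). The members higher in Tet/Tet ESCs came from each of the 6 roles, with 4 voltage-gated, 1 modifier, 2 inward rectifier, 3 tandem-pore, 1 calcium- or sodium-activated and 2 auxiliary genes.

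**Figure D5:**
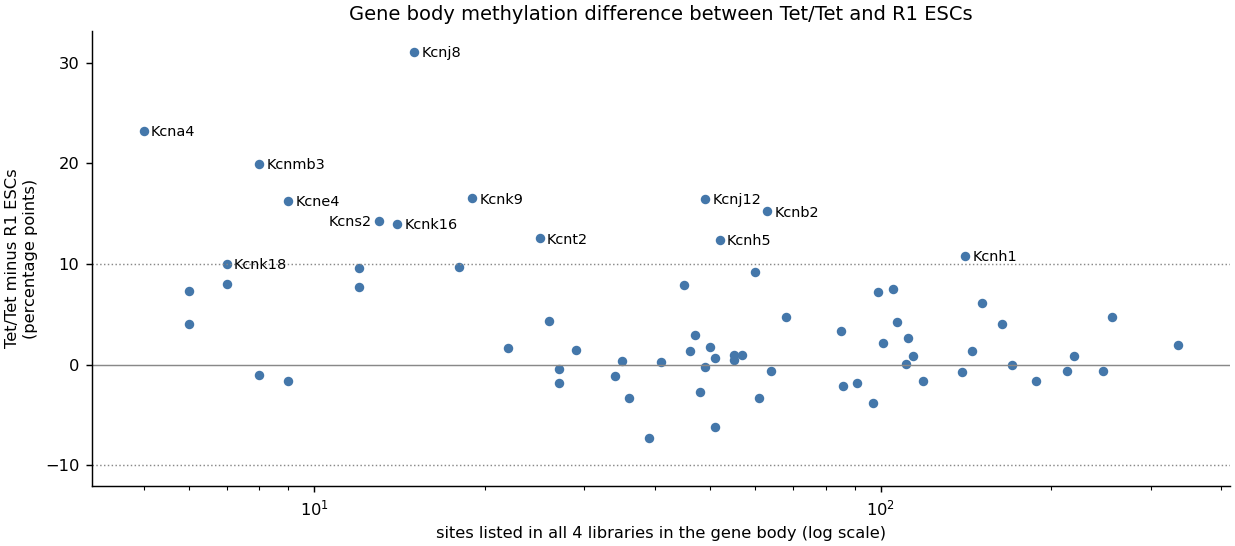
Difference in gene body level between Tet/Tet and R1 ESCs (percentage points) against the number of sites in the body (log axis), with 1 point per member. The differences above 10 points lie mostly at low site numbers, with Kcnj8 the highest at 31.1.

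Other genes of neuronal excitability were read in the same way. Of 14 sodium and calcium channel promoters, 3 (21.4%) were higher in R1 neurons than in R1 ESCs by at least 10 points, and of 22 glutamate and GABA receptor promoters, 6 (27.3%), beside 37.7% of potassium channel promoters. In Tet/Tet ESCs 7.69% of the sodium and calcium channel bodies and 14.8% of the receptor bodies were higher than in R1 ESCs, beside 18.8% of potassium channel bodies. Gene body medians of the sodium and calcium channel genes were 43% in R1 and 44.9% in Tet/Tet ESCs, and 86% in R1 and 14.3% in Tet/Tet neurons. Those of the receptor genes were 41.4%, 44.2%, 88.7% and 12.7% in the same order. The difference of potassium channel genes from these lists was not tested.

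The tables listed 2311939 to 5298360 sites, and 1436800 on these chromosomes were in all 4. As a check of the labels, the promoter of Pou5f1, a pluripotency factor, was at 1.90% in R1 and 8.91% in Tet/Tet ESCs, and 36.1% in R1 and 5.44% in Tet/Tet neurons (15 sites). Dppa4, also of pluripotent cells, was at 4.14% in R1 and 3.36% in Tet/Tet ESCs, and 88% in R1 and 15.5% in Tet/Tet neurons (18 sites). Of the 4 neuronal genes with a level, Map2 was at 1.83% in R1 and 1.53% in Tet/Tet ESCs, and 3.52% in R1 and 1.91% in Tet/Tet neurons (41 sites). Snap25 was at 2.72% in R1 and 3.97% in Tet/Tet ESCs, and 18.3% in R1 and 6.27% in Tet/Tet neurons (29 sites). Neurod1 was at 2.42% in R1 and 3.89% in Tet/Tet ESCs, and 13.4% in R1 and 4.05% in Tet/Tet neurons (17 sites). Stmn2, the one of the 4 above 20% in Tet/Tet ESCs, was at 1.27% in R1 and 22.3% in Tet/Tet ESCs, and 1.41% in R1 and 4.15% in Tet/Tet neurons (10 sites). In Tet/Tet neurons these promoters were all at 1.91% to 15.5%, so the check cannot settle the label of that library. Methylation does not measure expression, so these values do not show the share of neurons in a culture. At the 57 mitochondrial sites in all 4 libraries, where little methylation is known, the mean was 4.60% in R1 and 6.60% in Tet/Tet ESCs, and 13.5% in R1 and 6.61% in Tet/Tet neurons, with medians under 1%.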

How the data were processed

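RRBS had been run on 1 library each of ESCs and of neurons from the R1 and the Dnmt1 Tet/Tet line, from 200 ng of DNA. Per the submitters' processing notes and the study's methods, the authors trimmed reads with Trim Galore 0.6.4, checked them with FastQC 0.11.8, aligned them to mm10 with Bismark 0.19.0 and called methylation with MethylDackel 0.3.0. The deposited values are the percent of methylated reads at each CpG, without read numbers. Depth per site is therefore unknown, no interval or floor could be given, and the Fisher's exact test foreseen for read counts was not possible.

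Sites were read on chromosomes 1 to 6 and 11 to 19, and chromosomes 7 to 10 and X were not analysed here. Some members are counted but not reported here by name. Levels were unweighted means over sites listed in all 4 libraries, in regions with at least 5 such sites. Gene models were those of GENCODE M21. CpG islands were called on the sequence as stretches of more than 200 bp whose GC content reached 50% and whose ratio of observed to expected CpGs was above 0.6. Differences of at least 10 points were counted, beside the same count over all protein-coding genes. Python 3.11.15, numpy 2.4.6 and matplotlib 3.10.9 were used, and the counting was tested on simulated data.

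The genes and lists were chosen with earlier results of these data known. Named genes were the 3 largest differences in each direction for each comparison and region, the member with the most sites in each subfamily, the 3 highest and 3 lowest by promoter level in R1 ESCs and by body level in Tet/Tet neurons, and a textbook list. All the printed stretches, the repeat islands and the genes said to be so were chosen after their values were seen. Lists of sodium and calcium channel genes, glutamate and GABA receptor genes, and markers of pluripotent cells, neurons and astrocytes were also read. Of the markers, Dppa2, Rbfox3, Syt1, Gfap and Aqp4 had 0 promoter sites and Nanog and Tcl1 fewer than 5. Esrrb and Dppa3 were higher in R1 neurons (76.8% and 91.4%) than in R1 ESCs (39.4% and 39.1%), and the astrocyte gene Slc1a3 was at 9.02% in R1 neurons and 3.12% in R1 ESCs.

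Alternatives were sites listed in the 2 libraries compared, at least 20 sites, MspI fragments of 40 to 220 bp, sites outside islands, 1 site per 100 bp, medians, a difference of 25 points, other promoter windows and starts, and other bounds of the gene body.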

Additional observations from a re-analysis of the deposited data

Results flagged for a closer look

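Tet/Tet was higher than R1 in ESCs and lower in neurons, so that the difference turned its sign between cell types, in the members given here. The difference between the cell types was not tested, with 1 library per condition, and cell type cannot be told apart from sequencing project. The median over promoters was 0.216 points in ESCs and -4.47 in neurons, and that over gene bodies 1.76 and -68.3. Over all protein-coding genes the promoter medians were 0.233 and -2.15 and the body medians 1.32 and -70.5. The promoter median in ESCs was -0.056 points with medians of sites, so that its sign does not hold under that alternative.

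Among promoters, the difference in neurons was -75.7 points for Kcnip1, -79.5 for Kcnk18 and -72.3 for Kcnmb1, which were higher in Tet/Tet ESCs by 21.1, 11 and 20.9 points. At the protein-coding starts of Kcnip1 the difference in ESCs was -1.37 points, so that its sign did not turn there. Of all promoters, 25.6% were lower in Tet/Tet neurons by at least 10 points. Among gene bodies it was -75.9 for Kcna4, -70.5 for Kcne4, -75.2 for Kcnh1, -78.5 for Kcnj8, -80.1 for Kcnk16, -79.8 for Kcnk18, -70.4 for Kcnk9, -78.2 for Kcnmb3 and -49.9 for Kcns2. The same bodies were higher in Tet/Tet ESCs by 10.0 (Kcnk18) to 31.1 (Kcnj8) points. As 96.2% of all gene bodies were lower in Tet/Tet neurons by at least 10 points, the negative sign is not particular to these genes.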

How the results depend on the processing

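Of the counts and medians under alternatives, which are over the members alone, 195 stayed close to the reported value and 37 moved. The cause was not tested beyond what each alternative does by construction. Leaving out a replicate was not possible with 1 library per condition. No paired analysis was possible because each condition had 1 library and no test was made. Leaving out the site farthest from the mean, and leaving out islands of repeats, were chosen after seeing the data.

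With at least 20 sites, promoter counts were 0 higher in Tet/Tet ESCs (3 reported), 15 lower in Tet/Tet than R1 neurons (24), 13 higher in R1 neurons than ESCs (23), and 0 higher (1) and 0 lower (6) in Tet/Tet neurons than Tet/Tet ESCs, and the body count higher in Tet/Tet ESCs was 5 (13). With 25 points, these counts were 0, 14, 13 and 0 for promoters higher in Tet/Tet ESCs, lower in Tet/Tet neurons, higher in R1 neurons and higher in Tet/Tet neurons than Tet/Tet ESCs, and for bodies 1 higher in Tet/Tet ESCs and 38 lower in Tet/Tet neurons than Tet/Tet ESCs (61).

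With sites outside islands, promoter medians were -30.9 in neurons (-4.47) and 29.6 from R1 ESCs to R1 neurons (6.69), 1 promoter was lower in Tet/Tet ESCs (0), and the body median from Tet/Tet ESCs to Tet/Tet neurons was -36 (-27.9). With 1 site per 100 bp, the promoter median from R1 ESCs to R1 neurons was 12.3, 1 promoter was lower in Tet/Tet ESCs, and 8 bodies were higher and 2 lower (0) there. With sites of the 2 libraries compared, medians in neurons were -10.5 for promoters and -73.9 for bodies (-68.3), and the body median of Tet/Tet neurons against Tet/Tet ESCs was -32.9. With MspI fragments of 40 to 220 bp, 6 bodies were higher in Tet/Tet ESCs and the last median was -20.1. With medians of sites, 21 bodies were higher and 1 lower in Tet/Tet ESCs, and body medians were -78.5 in neurons and 46.0 from R1 ESCs to R1 neurons (38.9). With the promoter kept in the body, 8 were higher in Tet/Tet ESCs, and medians were -46.1 in neurons, 30.5 from R1 ESCs to R1 neurons and -17.9 from Tet/Tet ESCs to Tet/Tet neurons. The 1 promoter higher in Tet/Tet neurons than Tet/Tet ESCs, Kcnip3, was 0 with MspI fragments, with medians of sites, with all protein-coding starts and without its farthest site.

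Of differences of named genes that were at least 10 points as reported, 5 turned their sign under an alternative, and of smaller ones 204 did. The median promoter difference between ESC lines went from -0.056 (medians of sites) to 0.720 (outside islands). With all protein-coding starts these were Kcnip1 between ESC lines (-1.37, reported 21.1) and from Tet/Tet ESCs to Tet/Tet neurons (0.833, reported -58), and Kcnip3 in the latter (-0.28, reported 20). Within 500 bp, Kcnip2 was -0.69 from R1 ESCs to R1 neurons (14.5). With medians of sites, the body of Kcng2 was 3.34 from Tet/Tet ESCs to Tet/Tet neurons (-10.1).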

Other observations

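Of 3138 promoter sites in potassium channel genes, 3 were at 80% or more in each of the 4 libraries, or 0.0956%, beside 0.0511% over all genes, and of 5080 body sites 15 were, or 0.295%, beside 0.375%. In Kcnq3, a repeat island held a site at 96.6% in R1 and 97.2% in Tet/Tet ESCs, and 96.9% in R1 and 96.5% in Tet/Tet neurons, where the island as a whole was at 29.6% in R1 and 22.2% in Tet/Tet ESCs, and 83.3% in R1 and 27.2% in Tet/Tet neurons (20 sites).

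Repeat islands of Kcnn2 were not alike in Tet/Tet neurons. One was at 82.4% in R1 and 87.1% in Tet/Tet ESCs, and 95.7% in R1 and 82.5% in Tet/Tet neurons (6 sites). Another was at 78.1% in R1 and 87.2% in Tet/Tet ESCs, and 96.2% in R1 and 24% in Tet/Tet neurons (6 sites). The third was at 16.7% in R1 and 12.8% in Tet/Tet ESCs, and 55.6% in R1 and 0.0% in Tet/Tet neurons (6 sites). They rest on 6 sites each.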
